A study of Mus musculus with 12 samples.

Results

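The genes of the tumour necrosis factor (TNF) ligand and receptor superfamilies were followed in mouse spinal cord after injury and after a graft of MSC (mesenchymal stem cells, which are stromal cells of several tissues). Members were the genes of the deposited count table whose mouse symbol is Tnf or Ltb or begins with Tnfsf or Tnfrsf. There were 35 of them among 46078 genes: 14 ligand genes, 20 receptor genes and the antisense RNA Tnfsf13os. Bulk RNA was sequenced in 12 libraries of 4 groups of 3: spinal cord injury (SCI) with allogeneic MSC from an unmatched donor, SCI with syngeneic MSC from a matched donor, SCI alone and non-injured cord. All hosts are labelled C57BL6/cJ, and the samples are labelled as spinal cord tissue. No sham graft is named in the label of SCI alone, so an effect of the grafting procedure and one of the cells cannot be told apart. The sources used here give no time after injury, donor strain, route of grafting, sex or age. Nothing in the labels states that samples of 1 group came from different mice, and p-values therefore reflect only the spread between these samples, some of which may be technical.

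TNF superfamily ligands are mostly trimers held in the membrane or shed from it, and TNF itself is released by the protease ADAM17. They bind receptors, many of which recruit adaptors of the TRAF family, which feed the NF-kappaB transcription factors. Some of the receptors recruit death-domain adaptors, which can start apoptosis or necroptosis. Tnf and its receptors are known in the injured cord from microglia and infiltrating macrophages, whereas Ltb, which encodes lymphotoxin beta, is best known as a membrane ligand of lymphocytes that partners with lymphotoxin alpha.

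Ltb and Tnf are neighbours on chromosome 17 in GRCm38, Ltb on the plus strand (chr17:35194439-35196320) and Tnf on the minus strand (chr17:35199381-35202007). Tnfrsf1b, the TNF receptor without a death domain, lies on the minus strand of chromosome 4 (chr4:145213463-145246870). The bases just before these 3 genes are shown because Ltb was the member called with allogeneic cells, while Tnf and Tnfrsf1b were among the largest differences with injury. The sequences are from RefSeq promoters on GRCm38.p6, printed on the strand of the gene and ending at the base before the annotated gene. They cover chr17:35194257-35194438 for Ltb, chr17:35202008-35202257 for Tnf and chr4:145246871-145247120 for Tnfrsf1b. Capitals mark matches on either strand to an NF-kappaB motif, to GAAANNGAAA, an interferon-response type motif, or to TTCNNNGAA, a STAT type motif.
Ltb: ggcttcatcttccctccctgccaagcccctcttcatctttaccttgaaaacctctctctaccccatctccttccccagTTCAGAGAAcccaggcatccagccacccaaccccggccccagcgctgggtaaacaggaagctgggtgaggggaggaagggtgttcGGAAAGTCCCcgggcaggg
Tnf: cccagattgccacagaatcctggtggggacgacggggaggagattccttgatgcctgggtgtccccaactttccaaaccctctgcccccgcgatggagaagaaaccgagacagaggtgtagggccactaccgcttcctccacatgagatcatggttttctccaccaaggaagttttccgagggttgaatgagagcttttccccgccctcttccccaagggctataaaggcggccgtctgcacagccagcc
Tnfrsf1b: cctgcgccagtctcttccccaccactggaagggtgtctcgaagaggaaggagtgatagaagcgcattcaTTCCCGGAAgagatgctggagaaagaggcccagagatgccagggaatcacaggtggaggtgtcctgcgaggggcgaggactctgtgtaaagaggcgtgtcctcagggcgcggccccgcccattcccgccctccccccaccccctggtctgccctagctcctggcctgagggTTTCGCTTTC
In the Ltb window the NF-kappaB match reads GGGACTTTCC on the minus strand, from -87 to -78 relative to the RefSeq start, and a TTCNNNGAA match lies at -172 to -164. The Tnfrsf1b window holds a TTCNNNGAA match at -181 to -173 and a GAAANNGAAA match on the minus strand at -10 to -1, and the Tnf window holds none of the 3 motifs. RefSeq promoters were found for 27 of the 35 members, 31 promoters in all. For each motif, a member with a match had it in 1 promoter. Over the 250 bases before the start, the NF-kappaB motif was present in 7.25% of 32851 mouse promoters and in those of 4 members (Ltb, Tnfrsf25, Tnfrsf8 and Tnfrsf9). GAAANNGAAA was present in 2.98% and in 4 members (Tnfrsf14, Tnfrsf17, Tnfrsf1b and Tnfsf13b), and TTCNNNGAA in 7.02% and in 6 members (Ltb, Tnfrsf18, Tnfrsf1a, Tnfrsf1b, Tnfrsf25 and Tnfrsf9). A match is a string of letters and not evidence of binding, and a missing match concerns only these windows.

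Total counts per library ran from 8705942, in allogeneic replicate 2, to 26151928. Mitochondrial genes took 10.9% of the counts of non-injured replicate 3 and 4.998% to 8.80% elsewhere. Of 16527 genes that passed the filter on low counts, 26 were members, 10 ligands and 16 receptors. Markers of the other cell types in the cord moved with injury: all 7 microglial, all 7 monocyte and macrophage and all 7 tested T and NK (natural killer) cell markers rose in SCI against non-injured cord, and so did all 5 fibroblast and meningeal, all 5 astrocyte, 3 of 4 tested neutrophil and 3 of 4 oligodendrocyte precursor markers. In the same comparison 4 of 5 oligodendrocyte, 2 of 5 neuronal and 2 of 4 motor neuron markers fell, and 0 of 5 endothelial markers were called in edgeR, of which 1 had an unadjusted p below 0.05. Neuronal markers, summing to 3618 to 7224 CPM, were present in every library, as the tissue label has it. The sample numbers in the titles run apart from all others in each transplanted group, whereas those of SCI alone and non-injured cord interleave. The labels do not say what the numbers stand for, and for the transplanted groups a set of samples handled apart and the treatment cannot be told apart. In bulk tissue, more cells of a type and more RNA per cell cannot be told apart. Levels are given in CPM (counts per 1000000 counts of the library, with totals scaled by TMM, the trimmed mean of M-values), and "called" means an adjusted p below 0.05 in edgeR's quasi-likelihood test over all genes tested.

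In SCI against non-injured cord, 15 of the 26 tested members rose and 0 fell. Of all genes tested, 16.6% were called higher and 9.26% lower. The members that rose were 6 of 10 ligands and 9 of 16 receptors, and the median log2 fold change of the tested members was 1.01, against 0.01 over all genes. A member expressed in injured cord only could pass the filter through that group, so these counts describe the members measured and not all 35. At an unadjusted p below 0.05 there were 18 members, of which Tnfrsf13c and Tnfrsf22 were lower, and 38.4% of all genes passed that threshold in either direction. DESeq2 also called those 2 as lower, and limma-voom called 14 members, all of them higher. The map of log2 levels by library shows the pattern gene by gene.

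**Figure D1:**
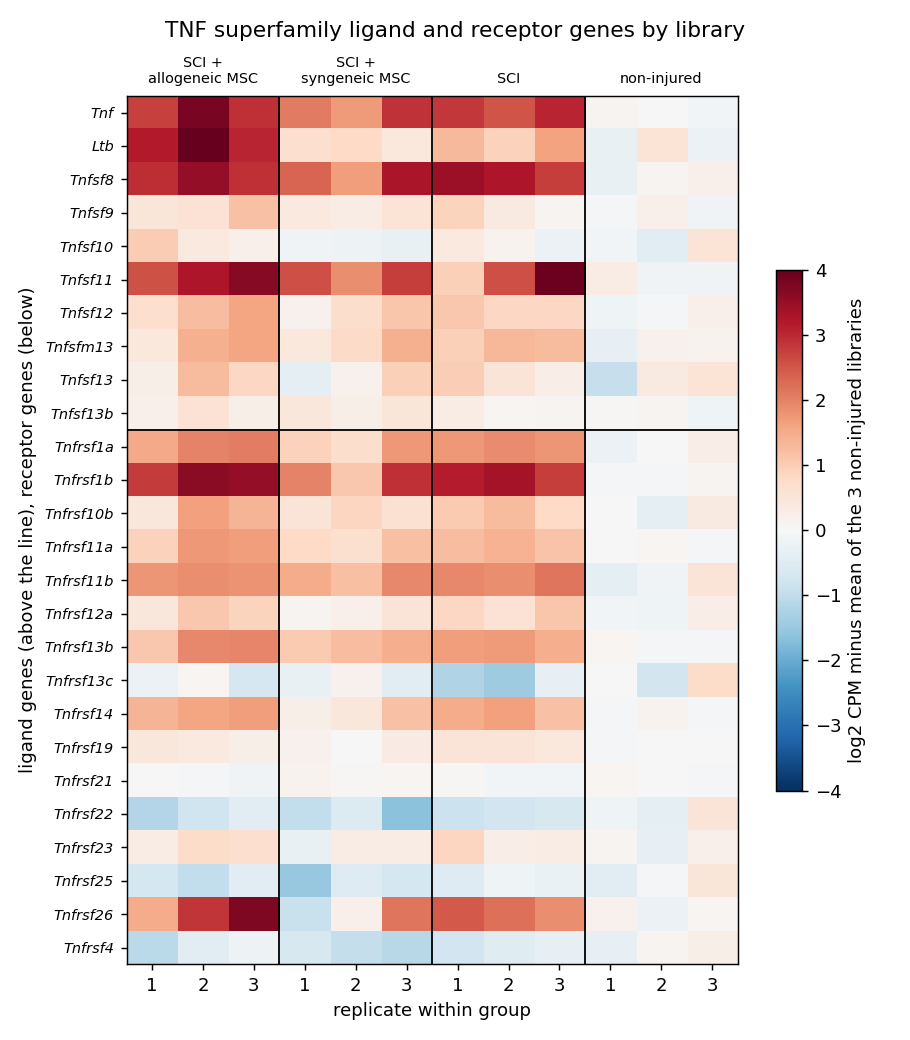
Level of the 26 tested members in each of the 12 libraries, as log2 CPM minus the mean of the 3 non-injured libraries (colour), with ligands above the line, receptors below it and libraries in columns by group. Tnf, Tnfsf8, Tnfrsf1b and Tnfrsf1a are above the non-injured mean in all 9 injured libraries, and Ltb stands out in the 3 allogeneic libraries.

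Tnf, the founding inflammatory ligand of the family, was nearly absent from non-injured cord. It had 1.04, 2.26 and 1.20 CPM with allogeneic cells, 0.612, 0.449 and 1.16 CPM with syngeneic cells, 1.10, 0.879 and 1.30 CPM in SCI alone, and 0.0773, 0.0625 and 0.0513 CPM in non-injured cord. Every injured library lay above every non-injured library, while the 3 injured groups overlapped. The non-injured values rest on 4 counts in all, against 57 in SCI, and the log2 fold change was 3.94 (SE 0.56, adjusted p = 0.000664 in edgeR).

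Tnfsf8, the ligand of the activation receptor CD30, had 2.82, 2.47 and 1.76 CPM in SCI and 0.116, 0.187 and 0.205 CPM in non-injured cord. The groups did not overlap, and Tnfsf8 rose by 3.78 on the log2 scale (SE 0.50, adjusted p = 0.000419 in edgeR). With allogeneic cells it had 2.01, 3.05 and 1.98 CPM, and with syngeneic cells 1.27, 0.776 and 2.51 CPM. The syngeneic libraries were spread widest, with replicate 3 inside the SCI range and replicates 1 and 2 below it.

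Tnfsf11, which encodes RANKL, the ligand that drives osteoclast formation, had 2, 11 and 30 counts per SCI library, against 1, 0 and 0 per non-injured library. Pooled over libraries, the ratio of SCI to non-injured cord was 50.6 with a 95% counting interval of 8.61 to 2044, which covers counting error only. The SCI libraries were spread widely, and the call (adjusted p = 0.00821 in edgeR) held in each of the 19 alternatives in which Tnfsf11 was tested. Its fitted log2 fold change of 5.17 became 4.06 without SCI replicate 3 and 3.97 in limma-voom. Without non-injured replicate 1 it was 6.88, a fitted value that is no bound because the non-injured group then holds 0 counts.

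Tnfsf12, which encodes TWEAK, a widely expressed ligand that acts through Tnfrsf12a, had the highest level of any ligand member in SCI per kilobase of annotated exon (5.94 ± 0.632 CPM per kb, SD, n = 3). In CPM it stood at 10.1, 8.46 and 8.45 in SCI and at 4.21, 4.62 and 5.44 in non-injured cord, without overlap. Its log2 fold change was 0.92 (SE 0.27, adjusted p = 0.0261 in edgeR), and 5 of 21 alternatives ended the call. It had 7.59, 11.3 and 14.3 CPM with allogeneic cells and 5.29, 7.84 and 10.3 CPM with syngeneic cells, both of which overlapped with SCI. Tnfsf12 shares exon sequence with Tnfsfm13, a read-through of Tnfsf12 into Tnfsf13, so the division of reads among the 3 is uncertain. Tnfsfm13 rose by 1.47 (SE 0.45), whereas Tnfsf13, which encodes APRIL, a survival factor of plasma cells, stood at 0.66 (SE 0.57) without a call.

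Ltb had 0.797, 0.604 and 1.02 CPM in SCI and 0.193, 0.437 and 0.205 CPM in non-injured cord. All SCI libraries lay above the non-injured ones, and the log2 fold change of 1.58 (SE 0.53) was just called (adjusted p = 0.0481 in edgeR). The call was lost in 12 of 21 alternatives, in which the adjusted p reached 0.155.

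The 4 ligands without a call were close to their non-injured level or variable. Tnfsf13b, which encodes the B cell survival factor BAFF, had 4.84, 4.23 and 4.25 CPM in SCI and 4.14, 4.31 and 3.49 CPM in non-injured cord, a log2 fold change of 0.16 (SE 0.17). Its groups overlapped, and with allogeneic cells it had 4.54, 5.98 and 4.71 CPM and with syngeneic cells 5.51, 4.66 and 5.52 CPM. Tnfsf10, the apoptosis-inducing ligand TRAIL, stood at 0.06 (SE 0.28), and Tnfsf9, a T cell co-stimulator, at 0.56 (SE 0.33).

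Both receptors of TNF rose. Tnfrsf1a, the death-domain receptor of TNF on most cell types, had 65.4, 72.8 and 65.6 CPM in SCI and 16.5, 19.1 and 23.2 CPM in non-injured cord. The groups were far apart relative to their spread, with a log2 fold change of 1.79 (SE 0.25, adjusted p = 0.000583 in edgeR). Tnfrsf1b, the second TNF receptor, which is prominent on microglia and other immune cells, had 39.2, 45.5 and 30.6 CPM in SCI and 4.29, 4.19 and 4.72 CPM in non-injured cord. It rose by 3.13 on the log2 scale (SE 0.41, adjusted p = 0.000391 in edgeR), to 874% of the non-injured mean.

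Tnfrsf11b, which encodes osteoprotegerin, a soluble decoy for RANKL and TRAIL, had the smallest p of any member. It had 9.01, 8.57 and 10.3 CPM in SCI and 1.74, 2.06 and 3.28 CPM in non-injured cord (log2 fold change 1.98, SE 0.24, adjusted p = 0.000308 in edgeR). Its values with allogeneic cells, 8.04, 8.57 and 8.16 CPM, were close together, and those with syngeneic cells were 6.60, 5.39 and 8.87 CPM. All of these lay above every non-injured value. Tnfrsf11a, which encodes RANK, the signalling receptor of RANKL, rose by 1.28 (SE 0.22).

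Tnfrsf13b, which encodes TACI, a receptor of BAFF and APRIL, had 5.09, 5.27 and 4.42 CPM in SCI and 1.62, 1.50 and 1.49 CPM in non-injured cord. The difference was 1.67 on the log2 scale (SE 0.24, adjusted p = 0.000737 in edgeR), without overlap. With allogeneic cells Tnfrsf13b had 3.37, 6.09 and 6.23 CPM and with syngeneic cells 3.32, 3.80 and 4.43 CPM. The other receptors of the same ligands were not called or not tested. Tnfrsf13c, the BAFF receptor of B cells, stood at -1.09 (SE 0.41, adjusted p = 0.0746 in edgeR), and Tnfrsf17, the plasma cell receptor, totalled 13 counts in SCI against 5 in non-injured cord. B and plasma cell markers were called in 0 of 4 tested cases in edgeR, and their summed level was 4.34 to 6.13 CPM in SCI and 2.90 to 4.05 CPM in non-injured cord.

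Tnfrsf12a, which encodes Fn14, the TWEAK receptor, is known as an injury-induced gene. It had 24.4, 20.3 and 29.1 CPM in SCI and 12.5, 12.1 and 16.4 CPM in non-injured cord, a log2 fold change of 0.85 (SE 0.19, adjusted p = 0.00874 in edgeR). With allogeneic cells Tnfrsf12a had 18.5, 28.4 and 25.4 CPM, inside or near the SCI range. With syngeneic cells its 14.7, 15.8 and 19.3 CPM lay below all 3 SCI libraries and overlapped with non-injured cord.

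The remaining called receptors were Tnfrsf14, the herpesvirus entry mediator of lymphoid and myeloid cells (1.55, SE 0.28), Tnfrsf10b, the mouse death receptor for TRAIL (1.10, SE 0.33), and Tnfrsf19, which encodes TROY, a co-receptor for myelin inhibitors of axon growth (0.49, SE 0.10). Tnfrsf19 had a small but even difference, at 73.1 ± 3.02 CPM in SCI and 52.2 ± 1.32 CPM in non-injured cord (SD, n = 3 each). Tnfrsf21, a death-domain receptor of neurons and oligodendrocyte precursors, had the highest level per kilobase of any member in both groups. It had 32.5 ± 2.34 CPM per kb in SCI and 33.9 ± 1.68 in non-injured cord (SD, n = 3 each), and its log2 fold change was -0.06 (SE 0.09). In SCI the order of levels per kilobase went on with Tnfrsf1a (26.2 ± 1.63), Tnfrsf19 (15.4 ± 0.638), Tnfrsf12a (12.7 ± 2.29) and Tnfrsf1b (10.1 ± 1.96). Tnfrsf12a overlapped within these SDs with both Tnfrsf19 and Tnfrsf1b, and Tnfrsf21, Tnfrsf1a and Tnfrsf19 were separated from each other by more than theirs. In non-injured cord the order was Tnfrsf21, Tnfrsf19 (11.02 ± 0.280), Tnfrsf1a (7.57 ± 1.30) and Tnfrsf12a (7.07 ± 1.21), the last pair within their SDs, with Tnfrsf1b at 1.15 ± 0.0738.

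Tnfrsf22, Tnfrsf23 and Tnfrsf26 are related neighbours on chromosome 7, and the first pair encodes decoy receptors for TRAIL in the mouse. Their values differed in direction, at -0.81 (SE 0.31) for Tnfrsf22, 0.49 (SE 0.25) for Tnfrsf23 and 2.97 (SE 1.02, adjusted p = 0.0523 in edgeR) for Tnfrsf26, and none was called. Tnfrsf26 had 0.980, 0.824 and 0.624 CPM in SCI and 0.116, 0.0625 and 0.103 CPM in non-injured cord, without overlap, and 7 of 21 alternatives called it. Reads could be split among the 3 by similarity, and Tnfrsf23 and Tnfrsf26 also lie opposite an antisense gene, so these values are uncertain. Tnfrsf4, the T cell co-stimulator OX40, and Tnfrsf25, a death-domain receptor of T cells, stood at -0.60 (SE 0.34) and -0.37 (SE 0.34).

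**Figure D2:**
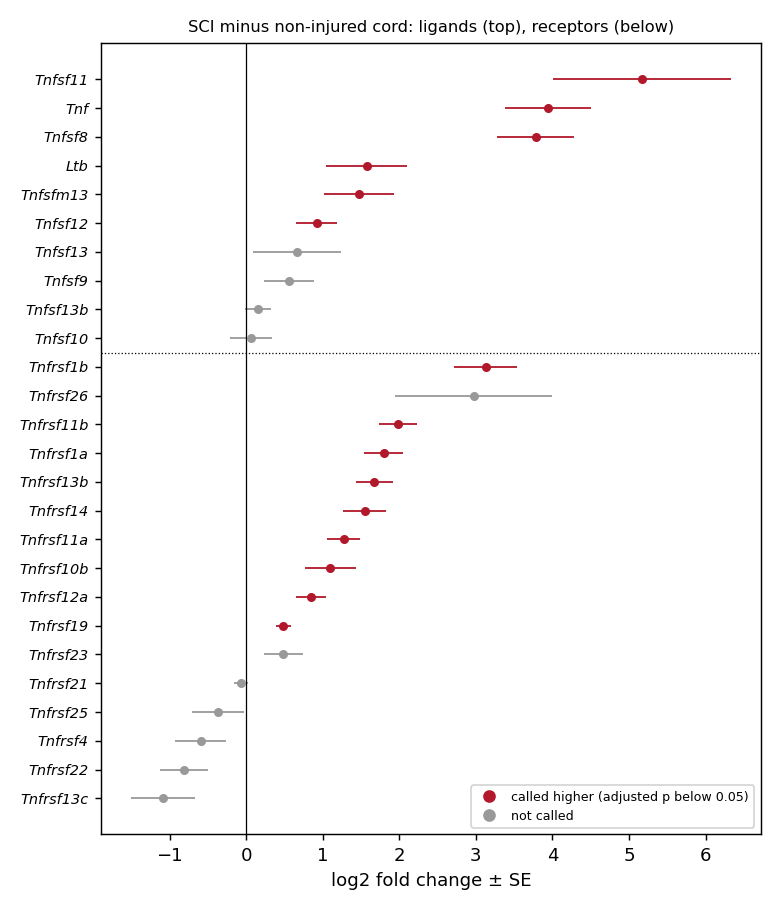
Log2 fold change of SCI minus non-injured cord with its standard error (horizontal axis) for each tested member, ligands above the dotted line and receptors below it; red points were called higher and grey points were not called. The called values run from 0.49 for Tnfrsf19 to 5.17 for Tnfsf11, whose non-injured group held 1 count.

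For 17 of the 26 members all 3 SCI libraries lay above all 3 non-injured libraries, and for 1, Tnfrsf22, all lay below. Over all genes tested these shares were 26.3% and 21.2%. Of the 15 calls, 10 (Tnf, Tnfsf8, Tnfrsf1a, Tnfrsf1b, Tnfrsf11a, Tnfrsf11b, Tnfrsf12a, Tnfrsf13b, Tnfrsf14 and Tnfrsf19) held in all 21 alternatives. The summed level of the monocyte and macrophage markers was 853 to 1344 CPM in SCI and 20.4 to 26.8 CPM in non-injured cord, and that of the microglial markers 1343 to 1573 CPM against 298 to 426 CPM, with no marker of either list at 0. The part of these cells in the rise of the members was not tested.

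The 9 members below the filter were read from their counts. Tnfsf18, the ligand of the T cell receptor GITR, totalled 21 counts over the SCI libraries against 1 over the non-injured ones (ratio 24.7, 95% counting interval 3.97 to 1022). Tnfsf14, the ligand LIGHT of Tnfrsf14, totalled 7 against 1 (ratio 8.24, interval 1.06 to 371), and Tnfrsf18, which encodes GITR, 11 and 2 (ratio 6.47, interval 1.41 to 60.1). These intervals cover counting error only and not the spread between libraries. Among the alternatives that tested them, Tnfsf18 was called in 10 of 11, Tnfrsf18 in 0 of 6 and Tnfsf14 in 0 of 1. Tnfrsf8, which encodes CD30, totalled 17 counts in SCI against 8 in non-injured cord, and Tnfrsf9, a T cell co-stimulatory receptor, 13 and 11. Tnfsf15, the ligand of Tnfrsf25, had 3 and 3, and Tnfsf4, the ligand of OX40, had 1 count in all 12 libraries, in SCI. The antisense RNA Tnfsf13os totalled 10 counts in SCI against 24 in non-injured cord, and reads from Tnfsf13 and from it can be told apart only by strand. With these depths, 3 counts correspond to 0.0575 CPM over the SCI group and 0.0489 CPM over the non-injured group, so Tnfsf15 and Tnfsf4 were at or under that floor in both. The allogeneic and syngeneic groups held 45091003 and 63449242 counts in all. In that order Tnfsf18 totalled 18 and 8 counts, Tnfsf14 8 and 1, Tnfrsf18 22 and 5, and Tnfrsf8 26 and 18. Tnfsf13os had 25 and 20, Tnfrsf9 11 and 11, Tnfrsf17 8 and 10, and Tnfsf15 4 and 6.

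With syngeneic cells, 0 of the 26 tested members were called against SCI alone in edgeR, and DESeq2 and limma-voom also called 0. Of all genes, 0.0363% were called in either direction. Most members nevertheless lay on the lower side: 23 of 26 log2 fold changes were below 0, with a median of -0.40 against 0.00 over all genes, and 5 had an unadjusted p below 0.05, all of them lower, as did 7.96% of all genes. Those 5 were Tnfrsf19 (-0.32, SE 0.10), Tnfrsf14 (-0.83, SE 0.27), Tnfrsf12a (-0.57, SE 0.19), Tnfrsf1a (-0.61, SE 0.24) and Tnfrsf1b (-0.93, SE 0.37), all of them receptors that rose with injury. The same SCI libraries enter both comparisons, with opposite sign, so a rise with injury and a lower syngeneic value are not independent. For Tnfrsf12a, Tnfrsf19, Tnfrsf1a and Ltb all 3 syngeneic libraries lay below all 3 SCI libraries, a pattern that 11.5% of all genes showed.

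The syngeneic libraries were unlike each other in these genes. Tnfrsf1a had 37.1, 31.7 and 64.7 CPM with syngeneic cells, against 65.4 to 72.8 CPM in SCI alone. Tnfrsf1b had 17.8, 9.31 and 33.8 CPM with syngeneic cells, against 30.6 to 45.5 CPM in SCI alone. In both, replicate 3 lay inside the SCI range or just below it, and replicates 1 and 2 lay far below it. Without syngeneic replicate 3, 4 members were called lower: Tnfrsf14 (-1.20), Tnfrsf19 (-0.44), Tnfrsf1a (-1.01) and Tnfrsf1b (-1.54), at adjusted p = 0.0191 to 0.0374 in edgeR. Of all genes tested in that fit 4.76% were called lower. Markers of several cell types varied in the same libraries. The summed monocyte and macrophage markers stood at 336, 226 and 1310 CPM with syngeneic cells and 853 to 1344 CPM in SCI alone, and the fibroblast and meningeal markers at 133, 185 and 785 CPM against 798 to 1183 CPM. Microglial markers summed to 879, 688 and 1402 CPM with syngeneic cells and 1343 to 1573 CPM in SCI alone, and neutrophil markers to 33.1, 32.1 and 51.3 CPM against 64.9 to 85.2 CPM. Endothelial markers summed to 199 to 222 CPM with syngeneic cells and 269 to 324 CPM in SCI alone. None of the markers of these 5 types was called in edgeR, and 2 of 7 monocyte and macrophage, 1 of 5 fibroblast and meningeal, 2 of 7 microglial, 3 of 4 neutrophil and 4 of 5 endothelial markers had an unadjusted p below 0.05. Neuronal markers went the other way, at 5827, 6521 and 4633 CPM with syngeneic cells and 3618 to 4466 CPM in SCI alone. So did motor neuron markers, at 188, 167 and 144 CPM against 109 to 131 CPM. Astrocyte markers, at 6123, 5773 and 8967 CPM against 8725 to 10165 CPM, were lower in replicates 1 and 2. No marker of these 3 types was called in edgeR. In that order 2 of 5, 1 of 4 and 1 of 5 had an unadjusted p below 0.05. The part of any of these cell types in the result was not tested.

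With allogeneic cells, Ltb was the only one of 26 tested members called against SCI alone. Ltb had 3.24, 8.12 and 2.95 CPM with allogeneic cells, 0.481, 0.531 and 0.385 CPM with syngeneic cells, 0.797, 0.604 and 1.02 CPM in SCI alone and 0.193, 0.437 and 0.205 CPM in non-injured cord. The 3 allogeneic libraries lay above all others, and the syngeneic libraries lay between the SCI and non-injured groups and overlapped with the non-injured group. In allogeneic against SCI alone the log2 fold change of Ltb was 2.51 (SE 0.43, adjusted p = 0.0448 in edgeR, 186 counts against 42), where 0.169% of all genes were called higher and 0.0182% lower. The median of the 26 members was 0.12, and the other 25 ranged from -0.40 for Tnfrsf25 to 0.90 for Tnfrsf26.

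The call of Ltb against SCI alone was lost in 12 of 21 alternatives, while its log2 fold change stayed between 1.93 and 2.79 in all of them. It was lost in limma-voom (2.26, adjusted p = 0.0866), with the 2 groups fitted alone (2.50, adjusted p = 0.177), and in edgeR without allogeneic replicate 2 (adjusted p = 0.0656) or without any one of the 9 libraries of the other 3 groups (adjusted p = 0.0515 to 0.298). In DESeq2 its adjusted p was 0.000139.

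Allogeneic against syngeneic cells, which differ in donor match, gave the same single call. Ltb was 3.28 higher on the log2 scale with allogeneic cells (SE 0.45, adjusted p = 0.00657 in edgeR), where 0.593% of all genes were called higher and 0.0182% lower. The call was lost when the 2 groups were fitted alone (3.28, adjusted p = 0.0767) and without syngeneic replicate 1 (3.29, adjusted p = 0.0597) or replicate 2 (3.38, adjusted p = 0.0569), and held in the other 18 alternatives. Of the 26 tested members 23 lay above 0, with a median of 0.53 against -0.02 over all genes, and 9 had an unadjusted p below 0.05, all of them higher, as did 10.1% of all genes. In 3 of them (Ltb, Tnfrsf14 and Tnfsf10) all allogeneic libraries lay above all syngeneic ones, which 7.03% of all genes showed. Tnfrsf21 went the other way, with all allogeneic libraries below all syngeneic ones (-0.14, SE 0.09), and was not called.

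After Ltb the smallest p were those of the receptors Tnfrsf14, Tnfrsf1b, Tnfrsf26 (2.54, SE 0.84) and Tnfrsf11a (0.61, SE 0.21), the ligand Tnfsf10 (0.79, SE 0.28) and the receptor Tnfrsf1a. Tnfrsf14 had 2.59, 3.05 and 3.28 CPM with allogeneic cells and 1.14, 1.35 and 2.31 CPM with syngeneic cells (log2 fold change 0.92, SE 0.27, adjusted p = 0.211 in edgeR). Tnfrsf1b stood at 1.18 (SE 0.37), with 31.0, 54.7 and 51.3 CPM with allogeneic cells against 17.8, 9.31 and 33.8 CPM with syngeneic cells. Tnfrsf1a, at 55.4, 77.7 and 81.2 CPM with allogeneic cells and 37.1, 31.7 and 64.7 CPM with syngeneic cells, stood at 0.69 (SE 0.24). Each of these 2 TNF receptors overlapped between the groups through syngeneic replicate 3 and allogeneic replicate 1. Without syngeneic replicate 3, 6 members were called higher, namely Ltb (3.22), Tnfrsf14 (1.30), Tnfrsf18 (4.15), Tnfrsf1a (1.10), Tnfrsf1b (1.80) and Tnfrsf26 (4.49), where 6.73% of all genes tested in that fit were called higher. Tnfrsf18, which encodes GITR, an activation marker of T cells, had 22 counts with allogeneic cells and 5 with syngeneic cells. It did not pass the filter with all libraries. Its counts in syngeneic replicates 1, 2 and 3 were 1, 0 and 4. Those of Tnfrsf26 were 0, 3 and 12, against 7, 12 and 56 in the allogeneic libraries. Without syngeneic replicate 3, the fitted values of both genes therefore rest on very few syngeneic reads.

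**Figure D3:**
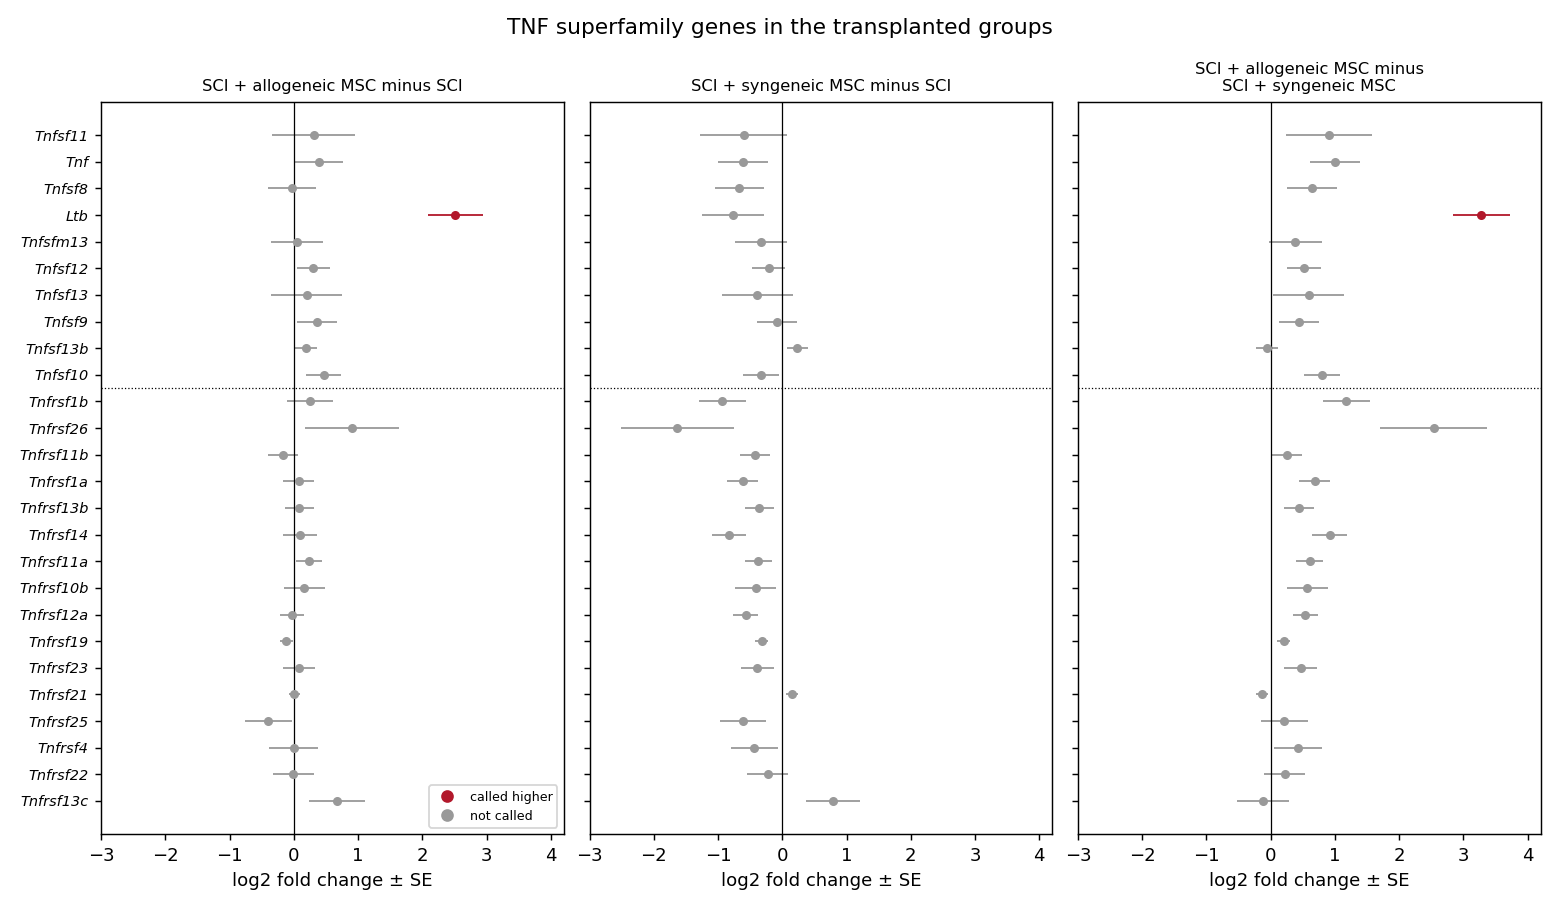
Log2 fold change with its standard error (horizontal axes) of each tested member for allogeneic cells minus SCI, syngeneic cells minus SCI and allogeneic minus syngeneic cells, ligands above the dotted line and receptors below it; red points were called higher. Ltb (2.51 and 3.28) is the only called member in the first and the third panel, and no member is called in the second.

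Markers of T and NK cells moved with Ltb. Their summed level over 8 markers was 41.2 to 82.0 CPM with allogeneic cells, 2.33 to 3.66 CPM with syngeneic cells, 4.94 to 5.05 CPM in SCI alone and 0.696 to 0.974 CPM in non-injured cord, where Cd3d, Cd8a and Ncr1 were at 0. Of the 7 tested markers, 6 were called higher with allogeneic cells than in SCI alone and all 7 than with syngeneic cells. The library with the most Ltb, allogeneic replicate 2, also had the highest T and NK marker sum (82.0 CPM) and the smallest total count. B and plasma cell markers overlapped between the allogeneic libraries (3.57 to 9.27 CPM) and SCI alone (4.34 to 6.13 CPM). Their sums in all allogeneic libraries lay above those in all syngeneic libraries (2.25 to 2.84 CPM). In that comparison 0 of 4 tested B and plasma cell markers were called in edgeR, and 1 had an unadjusted p below 0.05. Other marker sums did not overlap between the transplanted groups either. Neutrophil sums were 59.6 to 79.1 CPM with allogeneic against 32.1 to 51.3 CPM with syngeneic cells. Endothelial sums were 226 to 257 CPM against 199 to 222 CPM. Neuronal sums were lower, at 3903 to 4604 CPM against 4633 to 6521 CPM. No marker of these types was called in edgeR. Of 7 monocyte and macrophage markers 1 was called higher, and 5 had an unadjusted p below 0.05, as had 4 of 7 microglial markers. The part of any of these cell types in the level of Ltb was not tested.

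**Figure D4:**
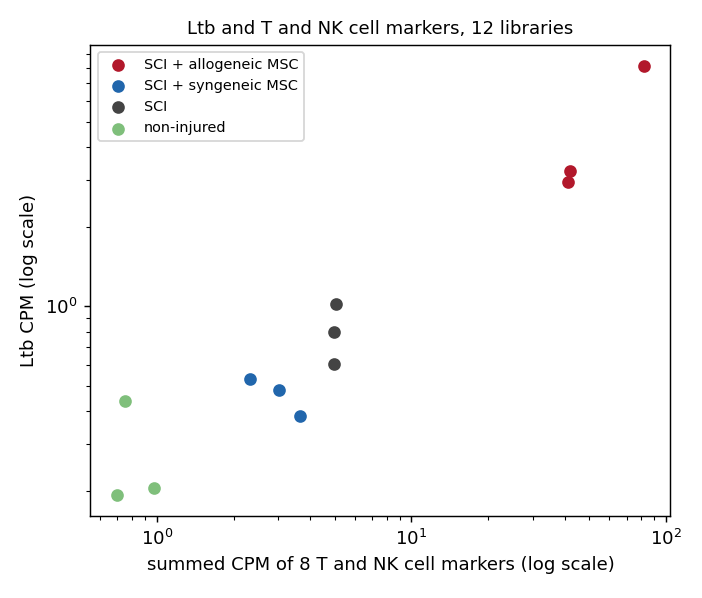
Ltb level (vertical axis, CPM, log scale) against the summed level of 8 T and NK cell markers (horizontal axis, CPM, log scale) in the 12 libraries, coloured by group. The 3 allogeneic libraries lie apart at 41.2 to 82.0 CPM of markers and 2.95 to 8.12 CPM of Ltb, and the points share library and depth on both axes.

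The 2 transplanted groups were also set against non-injured cord, a comparison whose control libraries are the same as for SCI alone. With allogeneic cells 16 of 26 members rose, where 16.7% of all genes were called higher, among them Ltb (4.09, SE 0.48), Tnf (4.33, SE 0.56), Tnfrsf1b (3.37, SE 0.41) and Tnfrsf26 (3.87, SE 0.97). With syngeneic cells 7 of 26 rose, where 4.92% of all genes were called higher: Tnf (3.33, SE 0.59), Tnfsf8 (3.11, SE 0.51), Tnfrsf1b (2.19, SE 0.40), Tnfrsf11b (1.55, SE 0.24), Tnfrsf13b (1.31, SE 0.24), Tnfrsf1a (1.18, SE 0.25) and Tnfrsf11a (0.90, SE 0.22). Neither group had a member called lower in edgeR or limma-voom, against 8.17% of all genes in edgeR with allogeneic and 0.424% with syngeneic cells, whereas DESeq2 called Tnfrsf22 lower in both. Tnfrsf22 stood at -0.82 (SE 0.31) with allogeneic and at -1.04 (SE 0.31) with syngeneic cells, at unadjusted p of 0.0227 and 0.00596 in edgeR. With syngeneic cells all 7 calls were lost when only the 2 groups were fitted, and 4 of the 7 held without non-injured replicate 1.

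**Figure D5:**
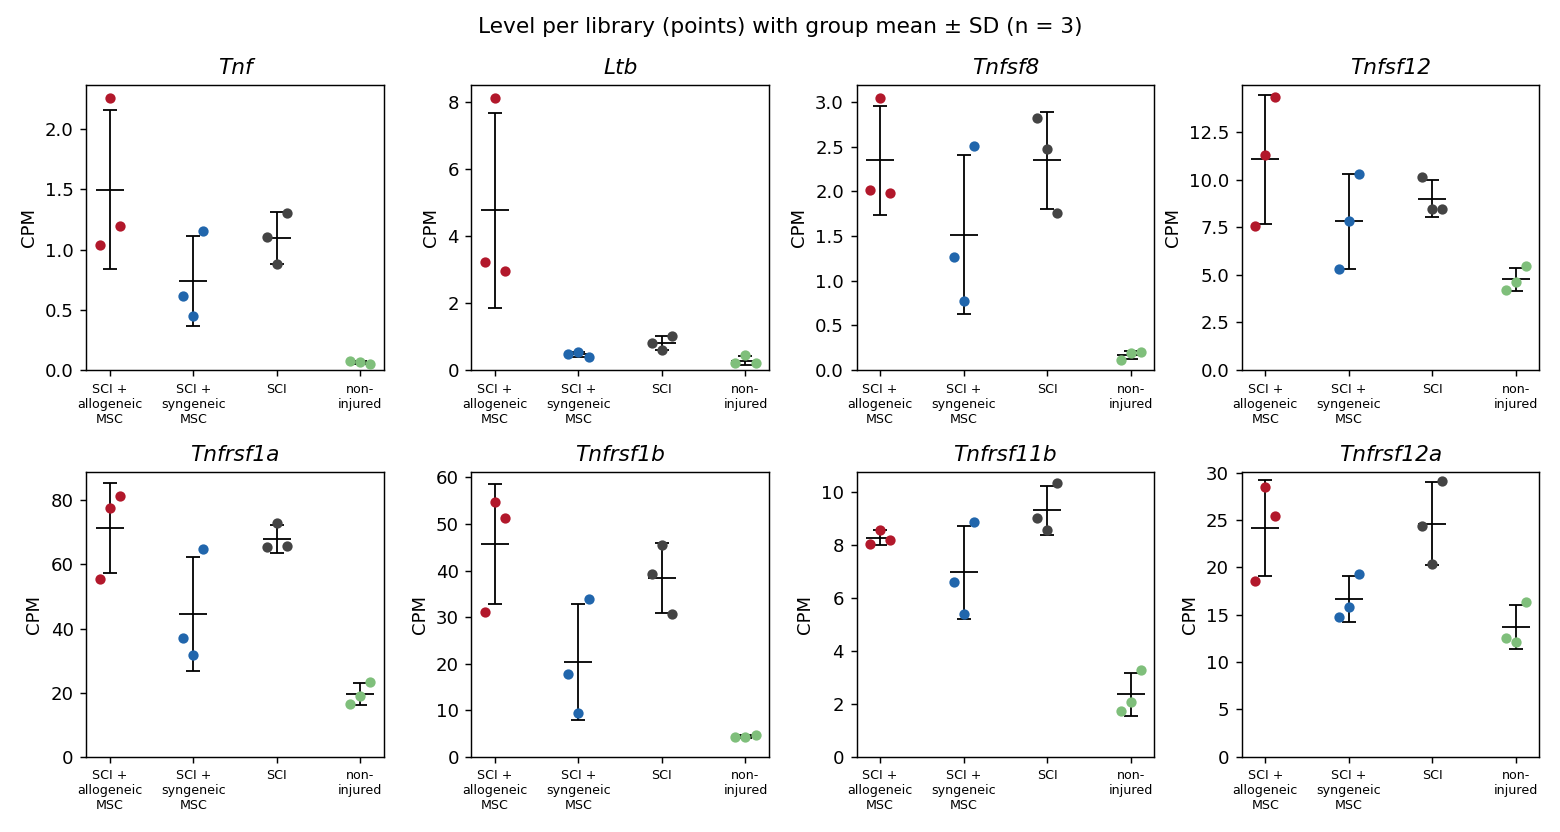
Level in CPM (vertical axes, from 0) of 4 ligands and 4 receptors in each library (points) with the group mean and SD (bars, n = 3), by group. Tnf and Tnfrsf1b are low in the non-injured libraries (at most 0.0773 and 4.72 CPM), Ltb is highest with allogeneic cells (at least 2.95 CPM), and syngeneic replicate 3 lies nearer to SCI than replicates 1 and 2 for Tnfrsf1a and Tnfrsf1b.

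Superfamily genes with other symbols were called higher in SCI than in non-injured cord in 4 of 9 tested cases, where 16.6% of all genes were called higher, and 0 were lower in edgeR. They were led by Eda2r, the receptor of an ectodysplasin isoform (2.28, SE 0.32), Ltbr, the receptor of lymphotoxin beta (1.14, SE 0.23), and Ngfr, the low-affinity neurotrophin receptor (3.35, SE 0.76). Ltbr had 33.7 ± 7.73 CPM with allogeneic cells, 20.6 ± 6.79 CPM with syngeneic cells, 30.5 ± 1.08 CPM in SCI alone and 13.8 ± 2.67 CPM in non-injured cord (SD, n = 3 each). Lta, which encodes the partner of lymphotoxin beta, did not pass the filter, with 2 to 6 counts in each allogeneic library. With allogeneic against syngeneic cells Fasl, the death ligand of cytotoxic lymphocytes (2.96, SE 0.46, adjusted p = 0.0135 in edgeR), and Cd27, a co-stimulatory receptor of T cells (4.29, SE 0.68, adjusted p = 0.0150 in edgeR), were called higher. These were 2 of the 9 tested genes, where 0.593% of all genes were called higher. With allogeneic cells against SCI alone 0 of the 9 were called in edgeR. At an unadjusted p below 0.05 there were 2, beside 2.94% of all genes in either direction. Cd27 had 33 counts in the allogeneic and 2 in the syngeneic libraries.

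Of the signalling genes close to the receptors, 13 of 26 were called higher in SCI than in non-injured cord, again beside 16.6% of all genes. They included Birc3, a ubiquitin ligase that protects from cell death (1.89, SE 0.26), and the kinases Ripk1 (1.42, SE 0.20) and Ripk3 (2.34, SE 0.38) of the necroptosis pathway. Of the NF-kappaB and feedback genes 12 of 17 were called higher, with Bcl3, a nuclear NF-kappaB cofactor (3.39, SE 0.36), Nfkb2, a subunit of the non-canonical arm that Ltbr activates (1.61, SE 0.18), and Tnfaip3, which encodes the feedback inhibitor A20 (2.02, SE 0.27). All 5 genes of ligand and receptor shedding were called higher, among them Rhbdf2, the escort protein of ADAM17 in immune cells (2.01, SE 0.32), its inhibitor Timp3 (0.94, SE 0.18) and Adam17 (0.66, SE 0.18). None of the 48 genes in these 3 lists was called lower in edgeR. With allogeneic cells against SCI alone 0 of the 48 were called in edgeR and 2 had an unadjusted p below 0.05, beside 2.94% of all genes in either direction. With syngeneic cells against SCI alone 0 were called in edgeR and 22 had an unadjusted p below 0.05, all 22 lower with syngeneic cells, beside 7.96% of all genes lower at that threshold. For allogeneic against syngeneic cells 0 were called in edgeR and 21 had an unadjusted p below 0.05, all 21 higher with allogeneic cells, beside 10.1% of all genes higher. Ripk1, Bcl3, Nfkb2, Timp3 and Adam17 overlap exons of other genes, so part of their reads could belong to those.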

How the data were processed

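The authors deposited raw read counts for each Ensembl gene, 1 column for each of 12 libraries and 46078 genes, and 45143 of these have a symbol. As tools, the submitters' processing notes list featureCounts 1.5.1, STAR 2.5.1, StringTie 1.3.3, Trim Galore 0.4.1, FastQC 0.11.5 and Picard, beside the build GRCm38, without saying what each was used for. Per the labels' protocols the libraries were poly(A)-selected and strand-preserving. Which annotation, strand setting and rule for multi-mapping reads the counting used is not stated, so values of overlapping, antisense and near-identical genes are uncertain.

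Groups came from the labels. The filter on low counts (filterByExpr in edgeR, with 10 as minimum count and 15 as minimum total) left 16527 genes. Counts were scaled by TMM and tested with edgeR 4.0.16 in R 4.3.3 (robust quasi-likelihood, all 12 libraries, 1 mean per group, 8 residual degrees of freedom), with Benjamini-Hochberg adjustment over all genes tested. The script was checked on simulated data. CPM used TMM-scaled totals, and levels per kilobase used the exon length in GENCODE on GRCm38. The log2 CPM values in the map by library had a prior count of 2. Counting ratios carry exact 95% intervals, and floors correspond to 3 counts over a group. Intervals and floors cover counting error only. Other scalings, filters, DESeq2 1.42.0, limma-voom (limma 3.58.1), fits of 2 groups and each library left out were alternatives.

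Members called in a comparison were named, and values in every library were given for the 6 called members with the smallest p after injury, for members called between other groups and for a fixed set (Tnf, Ltb, Tnfrsf1a, Tnfrsf1b, Tnfrsf12a, Tnfsf12, Tnfsf13b and Tnfrsf13b). Values in every library of Tnfsf11, Tnfrsf14 and Tnfrsf26, and the syngeneic counts of Tnfrsf18, were added after their values were seen. Of each pathway list the 3 called genes with the smallest p after injury were named. The members, lists and this rule were chosen with earlier results of these data known.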

Additional observations from a re-analysis of the deposited data

Results flagged for a closer look

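The difference between allogeneic and syngeneic cells in Ltb was marked because the effects of the 2 transplants, each relative to SCI alone, differed by a test of the difference itself: 3.28 on the log2 scale (SE 0.45, adjusted p = 0.00657 in edgeR). Relative to SCI alone, Ltb stood at 2.51 (SE 0.43) with allogeneic cells and at -0.76 (SE 0.49) with syngeneic cells. All 3 allogeneic libraries (2.95 to 8.12 CPM) lay above and all 3 syngeneic libraries (0.385 to 0.531 CPM) below the SCI libraries (0.604 to 1.02 CPM). Summed T and NK cell markers differed between the same groups. They stood at 41.2 to 82.0 CPM with allogeneic cells and 2.33 to 3.66 CPM with syngeneic cells. Summed B and plasma cell markers did not overlap either, at 3.57 to 9.27 CPM against 2.25 to 2.84 CPM. Neutrophil sums (59.6 to 79.1 CPM against 32.1 to 51.3 CPM) were likewise higher with allogeneic cells without overlap. So were endothelial sums (226 to 257 CPM against 199 to 222 CPM). Neuronal sums were lower without overlap, at 3903 to 4604 CPM against 4633 to 6521 CPM. The part of any of these cell types in the result was not tested. Groups of 3 libraries are too small to test a single library as an outlier.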

How the results depend on the processing

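Of the counts of called members, that of SCI against non-injured cord (15 in the main test) was 11 to 17 with 1 library left out, and that of allogeneic cells against non-injured cord (16) was 13 to 18. Both stayed within 1.5 times under all 21 alternatives. For allogeneic cells against SCI alone (1) the count was 0 in limma-voom and 0 with 2 groups fitted alone, and 0 to 1 with 1 library left out. For allogeneic against syngeneic cells (1) it was 0 with 2 groups fitted alone and 0 to 6 with 1 library left out, the 6 without syngeneic replicate 3. For syngeneic cells against SCI alone (0) it was 0 to 4, the 4 without the same library. For syngeneic cells against non-injured cord (7) it was 0 with 2 groups fitted alone and 4 to 9 with 1 library left out, the 4 without non-injured replicate 1. Fits of 2 groups have fewer samples to estimate the spread, and the cause of the other changes was not tested.

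Of 156 values of a member in a comparison, 27 changed sign under at least 1 alternative, and none of them was called in the main test or where its sign differed. Beyond 0.3 after the change were Tnfsf11 for syngeneic cells against SCI alone (-0.60 in the main test, 0.49 with 1 library left out) and Tnfrsf26 for syngeneic cells against non-injured cord (1.33 in the main test, -0.60 with 1 library left out). Among the fixed set of members, with allogeneic cells against SCI alone Tnfrsf12a ranged from -0.16 to 0.13, Tnfrsf13b from -0.075 to 0.32 and Tnfrsf1a from -0.024 to 0.23. Tnfsf13b ranged from -0.17 to 0.030 for allogeneic against syngeneic cells, and Tnfsf12 from -0.48 to 0.0059 for syngeneic cells against SCI alone. No paired analysis was possible because the labels give no replicate numbers, and replicates were numbered in accession order. Depth limits the low members: Tnf rests on 4 non-injured counts and Tnfsf11 on 1.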
